A study of Mus musculus with 3 samples.

Results

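The 35 genes described here encode the proteins of glycolysis, the carriers of glucose and lactate, and the regulators and targets of hypoxia-inducible factor (HIF). They were taken from a fixed list of names by Entrez Gene identifier, and all 35 had an entry in at least 1 of 3 RNA-seq tables that together listed 17209 genes. The cells were mouse epiblast stem cells (EpiSCs) of strain 129 at passage 1, pluripotent cells that resemble the epiblast after implantation. All had been grown on gelatin in serum with the inhibitors IWR1 and Y27. The IWR1 library came from cells treated with 2 µM IWR1, a tankyrase inhibitor that dampens Wnt signalling, for 12 h. The Y27 library came from cells treated with 0.5 µM Y27632 (labelled Y27), a small-molecule inhibitor, for 12 h. The NT library came from cells from which both inhibitors had been withdrawn overnight. The labels do not say if the treated cultures also went through withdrawal beforehand, so withdrawal in NT and treatment in the other libraries cannot be told apart in a difference from NT. The labelled Y27 dose is low for this compound as commonly used, so how strong that treatment was is uncertain.

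With 1 library a group there was no replicate to check any difference, and no p-value is given. Estimated counts came to a sum of 5607725 in IWR1, 5459332 in Y27 and 5767550 in NT. Differences between libraries are given on CPM, counts scaled to library size, and levels of different genes are compared in FPKM, which divides by transcript length. Ranges after folds and shares are exact 95% intervals and cover counting error alone. A gene was counted as at least 2-fold apart where log2((CPM + 1)/(CPM + 1)) reached 1 in size, which understates the differences of low genes. Of the 35 genes, 33 had a mean of at least 1 CPM and were compared, and Adm and Car9 did not. Markers of the labelled cell type were present, with all 8 of the epiblast stem cell list detected in every library and summed levels of 3594 CPM in IWR1, 2908 CPM in Y27 and 3261 CPM in NT. Within this list IWR1 differed from NT in both directions, with Fgf5 3.29-fold (2.67 to 4.08), Otx2 2.01-fold (1.77 to 2.29), Dnmt3b 1.98-fold (1.88 to 2.09) and Sox2 1.65-fold (1.52 to 1.79) higher and Nanog 1.31-fold and Lin28a 1.25-fold lower. The part of these differences in the results on the 35 genes was not tested. Of 6 endothelial and blood markers, 3 were detected in each library, with summed levels of 5.36 CPM in IWR1, 5.91 CPM in Y27 and 5.48 CPM in NT. The others, Gata1, Ptprc and Hbb-bt, were listed in no library. Fibroblast markers were low and in sum highest in NT, with 7, 7 and 8 of 8 detected in IWR1, Y27 and NT and summed levels of 74.3, 57.5 and 119 CPM. This sum rests mostly on Col1a1, at 54.7, 31.0 and 82.3 CPM, and not every marker had the same order. Postn was at 0 in IWR1 and Dcn at 0 in Y27. Of 4 neural markers, 3, 4 and 3 were detected, with summed levels of 66.1, 49.6 and 57.3 CPM in the same libraries. The part of such cells in the results below was not tested. In RNA from whole cultures, fewer cells of a type and less RNA per cell cannot be told apart.

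Glycolysis turns glucose into pyruvate through a chain of cytosolic enzymes, several of which exist as isozymes from separate genes. Cells that keep up glycolysis in the presence of oxygen convert much of the pyruvate to lactate and export it, and primed pluripotent cells are known for this metabolism. HIF is a pair of proteins whose alpha subunit is hydroxylated by oxygen-dependent prolyl hydroxylases, bound by the Vhl protein and degraded. When oxygen is low the alpha subunit persists and HIF binds DNA at sites built on ACGTG or GCGTG, many of them beside genes of glycolysis.

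Promoter windows were available for 32 of the 35 genes, which had 46 start sites (RefSeq, GRCm38.p6). No window was held for Slc2a3, Ndrg1 and Epas1. Each window was the 250 bases before a start site, read 5′ to 3′ on the strand of the gene. ACGTG, on either strand, stood in 22 of the 46 windows (47.8%), against 16.6% of all 32851 promoter windows and 21.3% of the 13158 windows of genes compared here. GCGTG, on either strand, stood in 25 of 46 (54.3%), against 28.2% of all windows and 44.6% of those of genes compared. At least 1 of these motifs was in 37 of 46 windows (80.4%), against 38.6% and 55.6%. The list was made up of glycolysis genes and HIF regulators and targets, so higher shares partly follow from that choice and are no test. Windows of start sites close together overlap, so a match can be counted in more than 1 window. Some of the ACGTG matches were part of CACGTG, the palindromic E-box that Myc and other factors can bind, which stood in 6 of 46 windows (13.0%), against 6.02% of all windows and 8.1% of those of genes compared. The windows of 5 genes are printed as examples. Pfkfb3 had the lowest value relative to NT in the Y27 library. Slc2a1, Ldha and Pgk1 were lower in both treated libraries. Hif1a was higher as measured, but not once the length and GC trend described below was removed. Whether the motifs go with differences between libraries was not tested. Capitals mark every ACGTG and GCGTG on either strand (CACGT and CACGC when read on the printed strand). For Pfkfb3 and Ldha the windows of both start sites are given. Pgk1 was included as a glycolytic gene known to carry the motif, so the printed windows are not a sample of the 46.
Pfkfb3 (chr2:11553930-11554179, minus strand): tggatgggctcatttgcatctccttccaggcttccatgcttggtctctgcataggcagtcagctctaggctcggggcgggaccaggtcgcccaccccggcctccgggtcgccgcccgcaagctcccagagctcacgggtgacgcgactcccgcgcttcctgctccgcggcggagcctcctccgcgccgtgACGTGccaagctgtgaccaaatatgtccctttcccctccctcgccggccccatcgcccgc
Pfkfb3 (chr2:11502091-11502340, minus strand): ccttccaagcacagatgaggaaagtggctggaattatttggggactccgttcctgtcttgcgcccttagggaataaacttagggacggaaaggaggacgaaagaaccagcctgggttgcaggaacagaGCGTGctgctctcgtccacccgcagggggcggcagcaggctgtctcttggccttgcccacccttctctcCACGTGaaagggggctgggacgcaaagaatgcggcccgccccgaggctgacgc
Slc2a1 (chr4:119108495-119108744, plus strand): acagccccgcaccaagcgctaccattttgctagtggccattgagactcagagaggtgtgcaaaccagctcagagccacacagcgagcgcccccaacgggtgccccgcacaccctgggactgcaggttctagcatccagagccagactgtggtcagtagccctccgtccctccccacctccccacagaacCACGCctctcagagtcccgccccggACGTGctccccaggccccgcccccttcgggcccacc
Ldha (chr7:46845554-46845803, plus strand): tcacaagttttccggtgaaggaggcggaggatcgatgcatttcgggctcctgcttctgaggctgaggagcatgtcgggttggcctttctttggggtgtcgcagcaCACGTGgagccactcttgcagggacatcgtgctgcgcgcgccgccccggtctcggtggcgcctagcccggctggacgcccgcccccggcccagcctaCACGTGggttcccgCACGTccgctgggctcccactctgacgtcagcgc
Ldha (chr7:46846832-46847081, plus strand): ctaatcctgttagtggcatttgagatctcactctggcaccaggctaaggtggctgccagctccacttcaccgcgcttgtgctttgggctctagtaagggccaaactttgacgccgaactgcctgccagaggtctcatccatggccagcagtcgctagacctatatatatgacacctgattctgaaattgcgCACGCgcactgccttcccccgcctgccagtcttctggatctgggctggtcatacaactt
Pgk1 (chrX:106186850-106187099, plus strand): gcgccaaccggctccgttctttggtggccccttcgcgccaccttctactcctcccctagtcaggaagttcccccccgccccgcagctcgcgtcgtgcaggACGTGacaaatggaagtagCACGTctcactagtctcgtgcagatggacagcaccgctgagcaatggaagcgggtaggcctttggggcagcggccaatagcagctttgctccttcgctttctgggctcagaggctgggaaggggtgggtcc
Hif1a (chr12:73907617-73907866, plus strand): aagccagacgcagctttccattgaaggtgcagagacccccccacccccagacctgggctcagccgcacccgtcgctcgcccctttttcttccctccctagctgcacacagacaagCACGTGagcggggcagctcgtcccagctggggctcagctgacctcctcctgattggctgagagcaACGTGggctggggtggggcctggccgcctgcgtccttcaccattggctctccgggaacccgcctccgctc
In the first Pfkfb3 window the motif began 60 bases before the start site. In the second, GCGTG began 122 bases and the E-box 53 bases before it. The first Ldha window held 2 E-boxes, beginning 145 and 48 bases before the start, and a further CACGT at 34 bases. The second held 1 CACGC, at 59 bases, and no ACGTG. The Pgk1 window held ACGTG at 150 bases and CACGT at 131 bases, the Slc2a1 window CACGC at 61 bases and ACGTG at 36 bases, and the Hif1a window an E-box at 135 bases and ACGTG at 70 bases. A match describes these letters and is not a measured binding site.

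Glycolytic transcripts were among the most abundant in these cells. Gapdh, which encodes glyceraldehyde-3-phosphate dehydrogenase, had the second highest FPKM of all genes in each library, at 4173 FPKM in IWR1, 3600 FPKM in Y27 and 4543 FPKM in NT. Pkm, which encodes the pyruvate kinase of the last step, was at 2118, 1872 and 2494 FPKM, and Eno1, the main enolase gene, at 1799, 1620 and 2193 FPKM, in the same order of libraries. In each library 7 of the 35 genes were among the 100 highest. At the other end, Epas1, which encodes HIF-2 alpha, was at 0.46, 0.77 and 0.68 FPKM, and Car9, which encodes a carbonic anhydrase of hypoxic cells, was counted by 1 read in IWR1, 1 read in Y27 and none in NT. The 35 genes together held 2.61% of all counts in IWR1 (2.60 to 2.62), 2.35% in Y27 (2.34 to 2.36) and 3.10% in NT (3.09 to 3.11). Summed over the 35 genes, the scaled counts were 1.21-fold lower in IWR1 than in NT (1.20 to 1.22) and 1.38-fold lower in Y27 than in NT (1.37 to 1.39). This sum rests mostly on the most abundant genes. Those of the lower steps, among them Gapdh, Pkm and Eno1, held 1.98% of all counts in NT. The HIF regulators alone were higher in sum than in NT, 1.11-fold in IWR1 (1.03 to 1.20) and 1.21-fold in Y27 (1.12 to 1.31), and the other roles were lower. The sum of the HIF regulators rests mostly on Hif1a. Egln1 and Egln3 were lower than NT in both treated libraries, and the low Epas1 in IWR1 alone. With the length and GC trend described below removed, Hif1a was at -0.05 and -0.06 on the log2 scale in IWR1 and Y27 over NT.

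**Figure D1:**
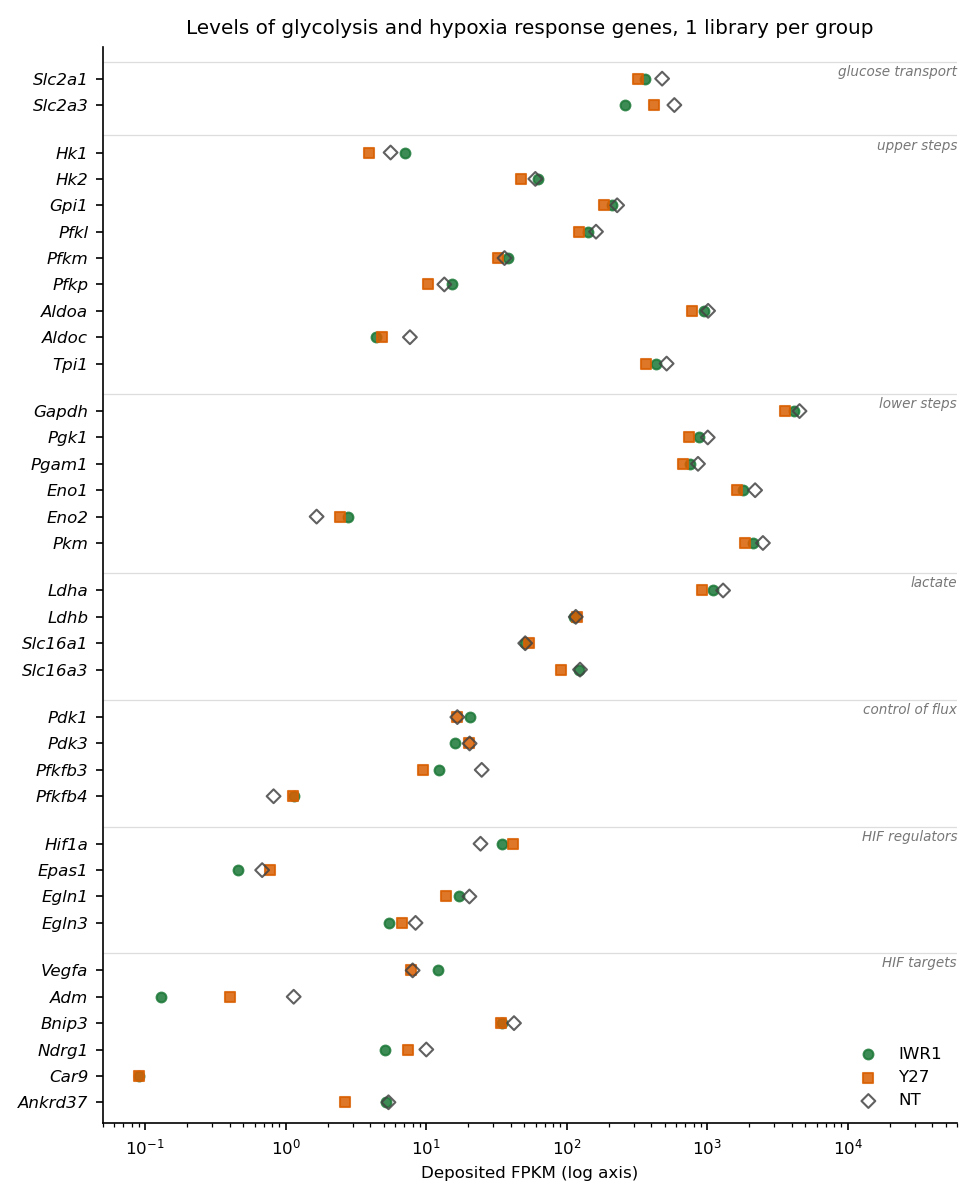
Deposited FPKM (log axis) of the 35 genes, grouped by role, in the IWR1 library (green circles), the Y27 library (orange squares) and the NT library (open diamonds). Car9 has no NT point because it was not listed there. Gapdh, Pkm and Eno1 lie highest in each library, and the Y27 points of most enzymes lie left of the NT points.

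Of the 33 genes compared, 24 (72.7%) were lower in IWR1 than in NT, against 50.3% of the 12955 genes compared in all. In Y27 28 of 33 (84.8%) were lower than in NT, against 51.9%. The median log2 difference was -0.21 in IWR1 over NT and -0.44 in Y27 over NT, and over all genes it was -0.004 and -0.023. Genes at a high level leaned lower too: of the 2375 genes whose mean reached 100 CPM, 57.4% were lower in IWR1 and 64.8% in Y27 than in NT, with medians of -0.05 and -0.13. Of the 18 listed genes at that level, 15 were lower in IWR1 and 16 in Y27, with medians of -0.18 and -0.46. Few differences were large. At least 2-fold lower than NT were 2 of 33 in IWR1, Slc2a3 and Pfkfb3, against 2.25% of all genes, and 1 of 33 in Y27, Pfkfb3, against 1.34%. None of the 33 was at least 2-fold higher in IWR1 or in Y27, against 2.28% and 5.58% of all genes. At 1.5-fold, 5 of 33 were lower in IWR1, against 6.37% of all genes, and 5 of 33 in Y27, against 5.53%. At this threshold none was higher in IWR1, against 10.8%, and 1 was higher in Y27, Hif1a, against 14.9%. These comparisons share the NT library, so their values for a gene are not independent.

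Log2 differences across all genes varied with transcript length and GC content, so the values were also computed with this trend removed. Then 20 of 33 were lower in IWR1 (median -0.13) and 28 of 33 in Y27 (median -0.35), against 54.8% and 58.0% of all genes treated in the same way. Of the genes of at least 100 CPM, 64.0% were then lower in IWR1 and 76.8% in Y27. The listed genes at that level, with 12 of 18 lower in IWR1 (66.7%), were near this share, and in Y27 17 of 18 were lower (94.4%). At 1.5-fold, 2 of 33 were then higher in IWR1 and 0 of 33 in Y27, against 780 and 920 of all 12955 genes. Lower by that much were 6 and 3 of 33, against 851 and 797 of all genes. Of all genes at least 2-fold apart, 50.3% were higher in IWR1 and 80.7% in Y27 as measured, and 36.3% and 57.1% with the trend removed. The plot of values before and after removal shows which genes depend on it. Hif1a, Slc16a1 and Pdk3, whose transcripts have the lowest GC content of the 33 (41.3%, 42.9% and 40.6%), moved farthest, all downward. Pfkfb3 and Slc2a3 differed little between the settings, with Pfkfb3 at -1.02 in IWR1 over NT and -1.45 in Y27 over NT, and Slc2a3 at -1.26 and -0.64.

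**Figure D2:**
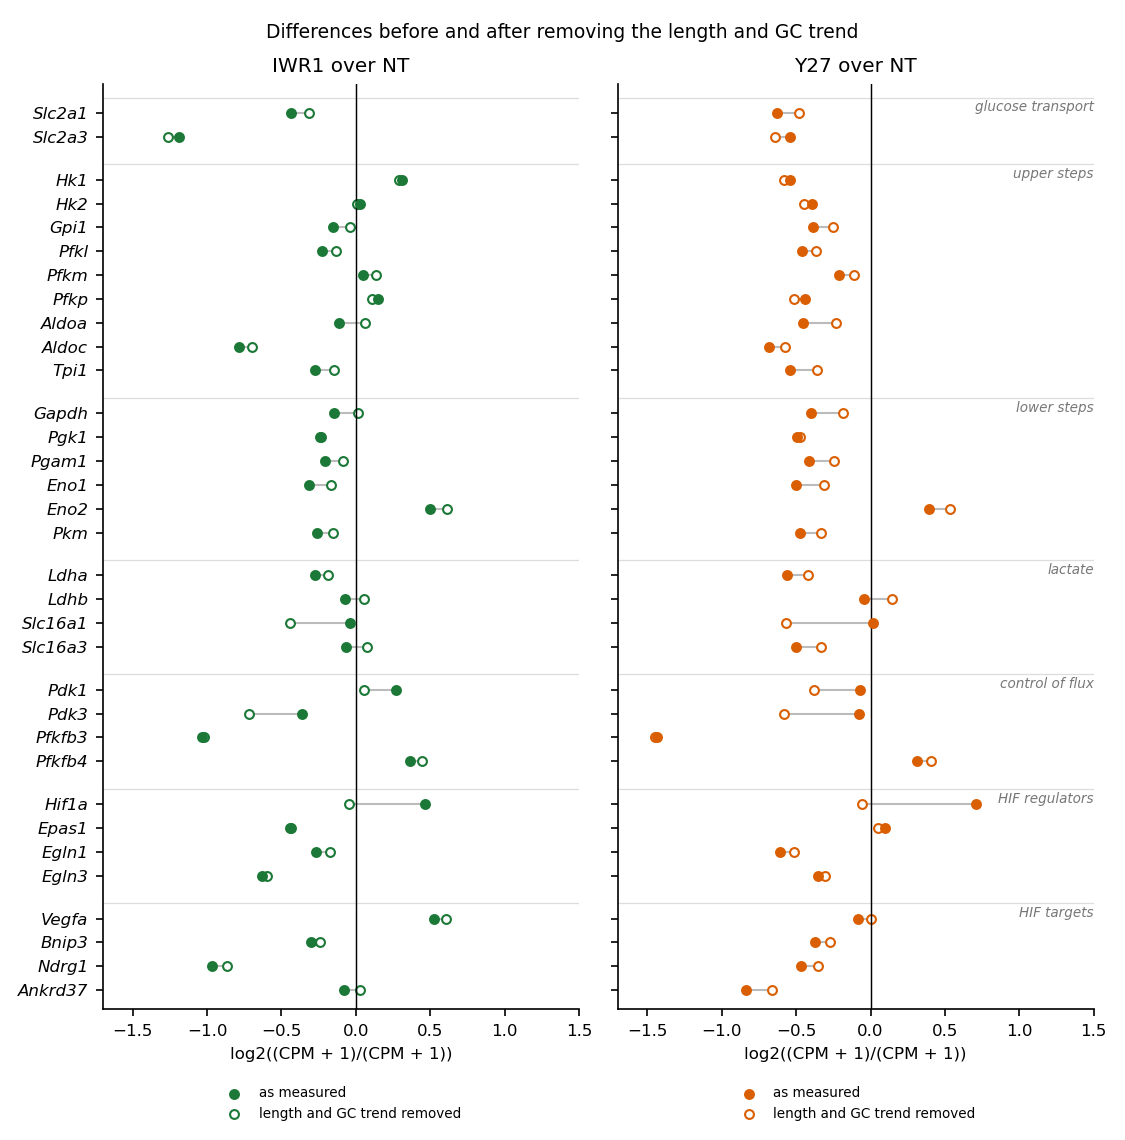
Log2 difference, log2((CPM + 1)/(CPM + 1)), of each of the 33 genes in IWR1 over NT (left, green) and Y27 over NT (right, orange), as measured (filled) and with the trend of length and GC content over all genes removed (open). Hif1a lies at 0.47 and 0.71 as measured and at -0.05 and -0.06 with the trend removed, whereas Pfkfb3 hardly moves.

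Glucose enters these cells through facilitative transporters, of which Slc2a1 encodes GLUT1, found in most cells, and Slc2a3 encodes GLUT3, a high-affinity form known from neurons and the early embryo. The Slc2a3 level was 1045 CPM in IWR1, 1642 CPM in Y27 and 2389 CPM in NT. IWR1 was the lowest library and NT the highest. Slc2a3 was 2.28-fold lower in IWR1 than in NT (2.22 to 2.36) and 1.46-fold lower in Y27 than in NT (1.42 to 1.49). Slc2a1 was at 930 CPM in IWR1, 815 CPM in Y27 and 1259 CPM in NT, 1.35-fold (1.31 to 1.40) and 1.55-fold (1.49 to 1.60) lower than NT. Here Y27 was the lowest library, so the order of the treated libraries was opposite for the transporters. Directly compared, Slc2a3 was 1.57-fold lower in IWR1 than in Y27 (1.52 to 1.62) and Slc2a1 1.14-fold higher (1.10 to 1.19). Per length, Slc2a3 made up 42.0% of the summed FPKM of the pair in IWR1, 56.5% in Y27 and 55.0% in NT. GLUT1 transcripts were thus the more abundant in IWR1 and GLUT3 transcripts in Y27 and NT. As shares of reads, Slc2a3 held 52.9% in IWR1 (52.0 to 53.9), 66.8% in Y27 (66.0 to 67.6) and 65.5% in NT (64.8 to 66.1), with exact binomial intervals, and these shares do not depend on scaling between libraries.

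The upper steps split glucose into triose phosphates. Hexokinase, the first enzyme, was mainly Hk2, the inducible isozyme, with 89.7% of the FPKM of Hk1 and Hk2 in IWR1, 92.4% in Y27 and 91.5% in NT. Hk2 was at 347 CPM in IWR1, 260 CPM in Y27 and 341 CPM in NT. IWR1 and NT could not be told apart beyond counting error, with a fold of 1.02 (0.955 to 1.08) that turned to -0.02 on the log2 scale under upper-quartile scaling, and Y27 was 1.31-fold lower than NT (1.23 to 1.41). Hk1, the isozyme of most tissues, was far lower per length, with a ratio of Hk2 to Hk1 of 8.75 in IWR1, 12.1 in Y27 and 10.7 in NT. Hk1 was at 29.8 CPM in IWR1, 16.1 CPM in Y27 and 23.9 CPM in NT, and IWR1 was 1.85-fold higher than Y27 (1.42 to 2.42), the largest ratio of IWR1 to Y27 among the genes of the upper steps. Gpi1, glucose-6-phosphate isomerase, was 1.11-fold lower in IWR1 (1.06 to 1.16) and 1.31-fold lower in Y27 (1.24 to 1.37) than in NT.

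Phosphofructokinase, the committed step, has 3 subunit genes. Pfkl, the liver type, was the most abundant at 141 FPKM in IWR1, 123 FPKM in Y27 and 162 FPKM in NT. Pfkm, the muscle type, was at 38.0, 32.4 and 36.1 FPKM, and Pfkp, the platelet type, at 15.3, 10.3 and 13.5 FPKM. In IWR1 Pfkl was 1.17-fold lower than in NT (1.11 to 1.23), while the folds of Pfkm, 1.03 (0.924 to 1.16), and Pfkp, 1.11 (0.952 to 1.30), had intervals that included 1. In Y27 Pfkl, Pfkm and Pfkp were 1.38-fold, 1.16-fold and 1.37-fold lower than in NT. Aldoa, the main aldolase gene, was at 1449 CPM in IWR1, 1146 CPM in Y27 and 1567 CPM in NT. The minor Aldoc, the brain type, was at 11.8, 12.7 and 21.1 CPM, 1.79-fold (1.31 to 2.45) and 1.65-fold (1.22 to 2.25) lower than NT. Tpi1, which interconverts the triose phosphates, was 1.21-fold lower in IWR1 (1.16 to 1.26) and 1.46-fold lower in Y27 (1.39 to 1.52). All 9 genes of the upper steps were lower in Y27 than in NT, also with the trend removed, where 51.9% of all genes and 64.8% of those of at least 100 CPM were lower (58.0% and 76.8% with the trend removed). In IWR1 5 of 9 were lower, with a median of -0.11, but the median was 0.01 and Aldoa was at 0.06 once the trend was removed.

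The lower steps yield ATP and pyruvate. Pgk1, phosphoglycerate kinase, was at 1612 CPM in IWR1, 1342 CPM in Y27 and 1892 CPM in NT, 1.17-fold (1.14 to 1.21) and 1.41-fold (1.37 to 1.45) lower than NT. Pkm was at 5172 CPM in IWR1, 4461 CPM in Y27 and 6207 CPM in NT. The table gives 1 value for Pkm over its transcripts, so the M1 and M2 forms of pyruvate kinase cannot be told apart. Gapdh, Pgam1 (phosphoglycerate mutase) and Eno1 showed the same order, with NT the highest library and Y27 the lowest. The folds of these 5 genes below NT lay between 1.11 (Gapdh) and 1.24 (Eno1) in IWR1 and between 1.32 (Gapdh) and 1.41 (Eno1) in Y27. With the trend removed, Gapdh in IWR1 over NT was at 0.01 and the other 4 stayed negative, and in Y27 over NT all 5 stayed negative, between -0.48 and -0.18. Of all genes of at least 100 CPM, 64.0% were then lower in IWR1 and 76.8% in Y27. Eno2, the neuronal enolase, was the exception in direction, at 7.15 CPM in IWR1, 6.59 CPM in Y27 and 4.78 CPM in NT, with log2 differences of 0.50 and 0.40 over NT, whose folds had intervals that included 1 (0.896 to 2.53 and 0.823 to 2.37). Per length, Eno1 exceeded Eno2 652-fold in IWR1, 664-fold in Y27 and 1321-fold in NT.

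Taking the most abundant isozyme of each step by its NT level, from hexokinase to lactate dehydrogenase, gave 11 genes. All 11 were lower in Y27 than in NT, between -0.56 and -0.38 on the log2 scale, and remained negative with the trend removed, between -0.48 and -0.18. Of all genes of at least 100 CPM, 64.8% were lower in Y27 (median -0.13), and 76.8% with the trend removed (median -0.15). All 11 were also higher in IWR1 than in Y27, with log2 differences of IWR1 over Y27 between 0.19 and 0.42, where 36.3% of all genes of at least 100 CPM were lower in IWR1 (29.9% with the trend removed). In IWR1 over NT 10 of 11 were lower (90.9%), all but Hk2, between -0.31 and 0.03, against 57.4% of all genes of at least 100 CPM. With the trend removed 8 of 11 were lower (72.7%), near the 64.0% of those genes. Counts of Gapdh, Eno1, Ldha, Aldoa, Gpi1 and Pfkl were partly fractional, as estimators give where reads are shared out between genes, and are uncertain to that extent. Those of Pgk1, Pgam1, Pkm, Tpi1 and Hk2 were whole in every library.

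**Figure D3:**
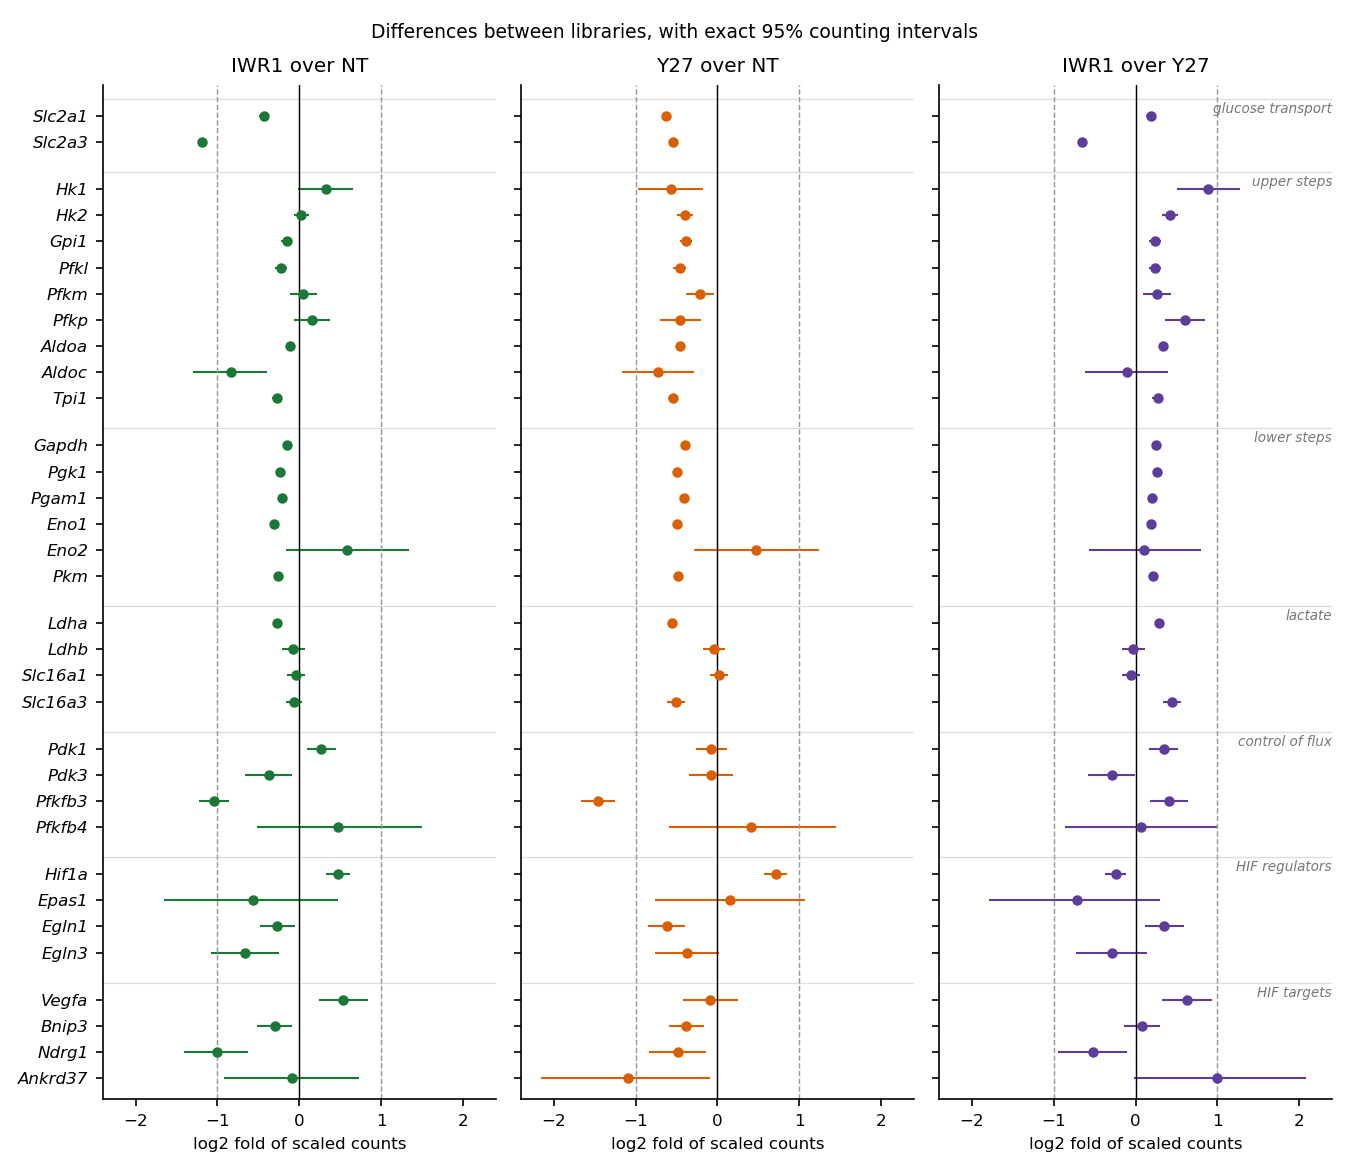
Log2 fold of scaled counts for the 33 genes, with exact 95% counting intervals as bars, in IWR1 over NT (left), Y27 over NT (middle) and IWR1 over Y27 (right). Dashed lines mark 2-fold. Pfkfb3 lies left of the left dashed line in the left and middle panels, Slc2a3 and, narrowly, Ndrg1 in the left panel and Ankrd37 in the middle panel. The folds are drawn without the pseudocount, with which Ndrg1 and Ankrd37 fall short of 2-fold, and the abundant enzymes form a narrow column left of 0 in the middle panel.

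Lactate dehydrogenase A, which favours the making of lactate, was at 1813 CPM (Ldha) in IWR1, 1487 CPM in Y27 and 2191 CPM in NT. Ldha was 1.21-fold lower in IWR1 (1.18 to 1.24) and 1.47-fold lower in Y27 (1.43 to 1.52) than in NT. Ldhb, the heart type, was nearly level at 148 CPM in IWR1, 151 CPM in Y27 and 156 CPM in NT. Its fold below NT was 1.05 in IWR1 (0.955 to 1.16) and 1.03 in Y27 (0.937 to 1.13), and its sign changed with the trend removed (0.05 in IWR1, 0.14 in Y27). The ratio of Ldha to Ldhb in FPKM was accordingly lowest in Y27, at 7.77, with 9.74 in IWR1 and 11.2 in NT. As measured, the lactate carriers differed likewise. Slc16a3, which encodes MCT4, the exporter of strongly glycolytic cells, was at 300.5 CPM in IWR1, 221 CPM in Y27 and 314 CPM in NT. It was 1.42-fold lower in Y27 than in NT (1.32 to 1.53), while IWR1 was within counting error of NT (1.05-fold lower, 0.977 to 1.12, and 0.08 on the log2 scale with the trend removed). Slc16a1, which encodes MCT1, was at 225 CPM in IWR1, 234 CPM in Y27 and 231 CPM in NT, level within counting error, but with the trend removed its log2 differences were -0.44 in IWR1 over NT and -0.57 in Y27 over NT. Slc16a3 was then at -0.34 in Y27 over NT, so the contrast between the carriers in Y27 was not kept. MCT4 transcripts made up 70.8% of the summed FPKM of the pair in IWR1, 63.2% in Y27 and 71.1% in NT.

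**Figure D4:**
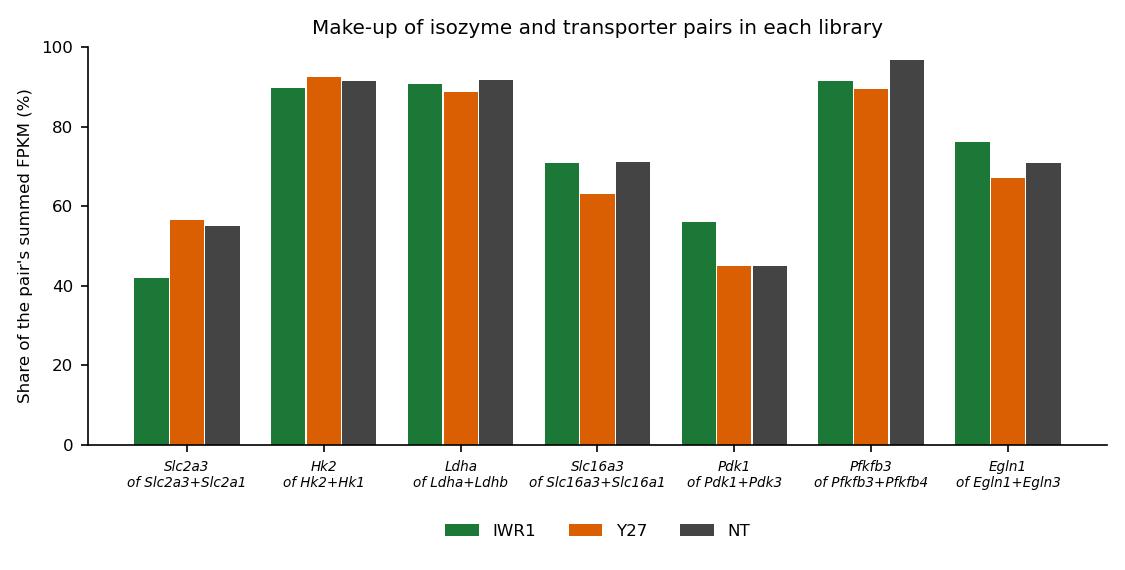
Share of the first gene in the summed FPKM of 7 pairs (percent, bars from 0) in the IWR1, Y27 and NT libraries, from left to right in each pair. Slc2a3 is the minor transporter in IWR1 (42.0%) and the major one in Y27 (56.5%) and NT (55.0%), and Pdk1 is the major kinase in IWR1 (56.0%).

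Among the genes that set the rate of glycolysis and the fate of pyruvate, Pfkfb3 stood out. It encodes the bifunctional enzyme that makes fructose 2,6-bisphosphate, an activator of phosphofructokinase. Pfkfb3 was at 62.9 CPM in IWR1, 47.3 CPM in Y27 and 129.6 CPM in NT. NT was the highest library, and Y27 the lowest, with IWR1 1.33-fold higher than Y27 (1.13 to 1.57). Pfkfb3 was 2.06-fold lower in IWR1 (1.81 to 2.35) and 2.74-fold lower in Y27 (2.38 to 3.17) than in NT, the largest difference of the 33 in Y27 and the second largest in IWR1. Its counts were partly fractional. Pfkfb4, a related isozyme, was low in all libraries at 3.93 CPM in IWR1, 3.76 CPM in Y27 and 2.83 CPM in NT, with folds over NT of 1.39 (0.697 to 2.83) and 1.33 (0.661 to 2.73). Pfkfb3 exceeded Pfkfb4 10.7-fold per length in IWR1, 8.42-fold in Y27 and 30.3-fold in NT.

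Pyruvate dehydrogenase kinases block the entry of pyruvate into the citric acid cycle. Pdk1, a HIF target, was at 20.5 FPKM in IWR1, 16.5 FPKM in Y27 and 16.7 FPKM in NT, and Pdk3 at 16.1, 20.2 and 20.4 FPKM. These genes went opposite ways in IWR1, Pdk1 1.21-fold higher (1.07 to 1.36) and Pdk3 1.29-fold lower (1.06 to 1.58) than in NT, and neither left counting error in Y27. Pdk1 counts were partly fractional. With the trend removed the log2 differences of Pdk1 were 0.06 in IWR1 over NT and -0.38 in Y27 over NT, and those of Pdk3 -0.72 and -0.58. Pdk1 was the more abundant per length in IWR1, with 56.0% of the pair, against 45.0% in Y27 and 45.0% in NT.

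Hif1a, which encodes HIF-1 alpha, was the main alpha subunit, 74.9-fold above Epas1 in FPKM in IWR1, 54.2-fold in Y27 and 35.8-fold in NT. Hif1a was at 166 CPM in IWR1, 197 CPM in Y27 and 119.9 CPM in NT. Both treated libraries lay above NT, with folds of 1.39 in IWR1 (1.25 to 1.53) and 1.64 in Y27 (1.49 to 1.81), but its log2 differences of 0.47 and 0.71 turned to -0.05 and -0.06 with the length and GC trend removed. Egln1 encodes PHD2, a prolyl hydroxylase that marks HIF alpha for degradation, and is itself a HIF target. Egln1 was at 61.1 CPM in IWR1, 47.8 CPM in Y27 and 73.6 CPM in NT. It was 1.20-fold lower in IWR1 (1.04 to 1.39) and 1.54-fold lower in Y27 (1.32 to 1.80) than in NT. Egln3 (PHD3) was at 14.6 CPM in IWR1, 17.9 CPM in Y27 and 23.2 CPM in NT, 1.58-fold (1.19 to 2.11) and 1.29-fold (0.989 to 1.70) lower than NT. Epas1 was at 2.50 CPM in IWR1, 4.06 CPM in Y27 and 3.73 CPM in NT, with intervals of its folds that included 1.

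The HIF targets outside glycolysis did not share a direction in IWR1. Vegfa, the endothelial growth factor, was at 40.4 CPM in IWR1, 26.1 CPM in Y27 and 27.7 CPM in NT. IWR1 was the highest library, 1.45-fold higher than NT (1.18 to 1.79), while Y27 was within counting error of NT (1.06-fold lower, 0.842 to 1.34, and 0.00 on the log2 scale with the trend removed). Vegfa counts were partly fractional. Ndrg1, a gene of stress and differentiation induced by hypoxia, was at 14.8 CPM in IWR1, 21.3 CPM in Y27 and 29.9 CPM in NT. Its 2.02-fold lower value in IWR1 (1.54 to 2.66) was a log2 difference of -0.97 after the pseudocount, just short of the threshold that Pfkfb3, at -1.03, just passed. Bnip3, a mitophagy receptor gene, was at 61.1 CPM in IWR1, 57.9 CPM in Y27 and 75.4 CPM in NT, 1.23-fold (1.07 to 1.43) and 1.30-fold (1.12 to 1.51) lower than NT. Ankrd37, a small ankyrin gene, had 26 reads in IWR1, 13 in Y27 and 28 in NT, and was 2.13-fold lower in Y27 than in NT (1.07 to 4.47), a log2 difference of -0.84. Adm, the adrenomedullin gene, had 1 read in IWR1, 3 in Y27 and 9 in NT, 8.91-fold (1.24 to 391) and 2.96-fold (0.739 to 17.0) fewer than NT after scaling. Car9 and Adm were too low for an order of the libraries to be read.

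In the direct comparison of the inhibitors, 24 of the 33 genes were higher in IWR1 than in Y27 and 9 lower, against 49.9% of all genes lower. Genes of at least 100 CPM leaned the same way, with 36.3% lower in IWR1 than in Y27 and a median of 0.07, and of the 18 listed genes at that level 4 were lower, with a median of 0.24. The median over the 33 was 0.23, or 0.19 with the trend removed, and 0.001 over all genes. None was at least 2-fold apart, against 1.38% of all genes at least 2-fold higher and 2.9% at least 2-fold lower in IWR1. At 1.5-fold, 4 of 33 were higher in IWR1, against 5.06% of all genes, and 1 of 33, Slc2a3, was lower, against 8.2%. Besides Hk1 at 1.85-fold, the genes highest in IWR1 relative to Y27 were Vegfa at 1.54-fold (1.25 to 1.91), Pfkp at 1.52-fold (1.28 to 1.81) and Slc16a3 at 1.36-fold (1.26 to 1.46), along with the low Ankrd37 at 1.99-fold (0.988 to 4.23). Among the genes lower in IWR1 than in Y27 were Slc2a3, given above, Ndrg1, 1.44-fold lower (1.08 to 1.93), and Hif1a, 1.18-fold lower (1.08 to 1.29) but at 0.00 on the log2 scale with the trend removed.

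Neighbouring parts of glucose metabolism were read from further lists. Of 15 other glycolysis genes compared (26 listed), 0 were at least 2-fold apart from NT in IWR1 or in Y27, with medians of -0.05 and -0.06. Of all genes, 2.25% were lower and 2.28% higher by that much in IWR1, and 1.34% and 5.58% in Y27. A count of 0 in this list or the short lists that follow therefore says little. Pgm1, phosphoglucomutase, was at 116 CPM in IWR1, 84.4 CPM in Y27 and 120 CPM in NT, and the low Pfkfb1, Slc2a12 and Gpd1 had folds with intervals that included 1. Of 12 genes for the entry of pyruvate into mitochondria, 0 were at least 2-fold apart, with medians of -0.03 and -0.14. Pdhb, the beta subunit of pyruvate dehydrogenase, was at 141 CPM in IWR1, 127 CPM in Y27 and 194 CPM in NT, 1.37-fold lower in IWR1, with an interval that did not include 1, and 1.52-fold lower in Y27 (1.38 to 1.68). Pdk2, a further pyruvate dehydrogenase kinase, had 46 reads in IWR1, 46 in Y27 and 23 in NT. It was 2.02-fold higher in IWR1 (1.20 to 3.49) and 2.03-fold higher in Y27 (1.20 to 3.50), with log2 differences of 0.86 and 0.87 that became 1.00 and 1.04 with the trend removed. Pdp1, a phosphatase that reverses these kinases, and Pdk4 were also under 10 CPM, and their log2 differences were 0.56 and -0.29 in IWR1 over NT and 0.62 and -0.94 in Y27 over NT. The 7 pentose phosphate genes compared (8 listed), which make ribose and NADPH, had medians of -0.10 and -0.24 and 0 at least 2-fold apart. Tkt, transketolase, was 1.30-fold lower in Y27 than in NT (1.23 to 1.37), Pgd was 1.27-fold lower (1.16 to 1.38), and Rpe, ribulose phosphate epimerase, was 1.75-fold higher (1.43 to 2.15), though its log2 difference was 0.04 once the trend was removed. Rpia, the isomerase of the same branch, had folds over NT of 1.33 in IWR1 (0.769 to 2.34) and 1.34 in Y27 (0.771 to 2.35). Of 6 gluconeogenesis genes 2 were compared. Pck2, the mitochondrial form of the enzyme that makes phosphoenolpyruvate, was at 116 CPM in IWR1, 72.9 CPM in Y27 and 87.9 CPM in NT, and G6pc3, a glucose-6-phosphatase, at 6.61, 6.09 and 6.55 CPM.

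Of 14 further genes of the HIF pathway, 2 were lower by at least 2-fold in IWR1, Cited2 and Siah2, against 2.25% of all genes, and 0 higher, against 2.28%. In Y27 0 were 2-fold apart from NT, against 1.34% lower and 5.58% higher of all genes, with medians of -0.09 and -0.13. Cited2, which encodes a competitor of HIF for the coactivators CBP and p300, was at 63.4 CPM in IWR1, 213 CPM in Y27 and 202 CPM in NT. IWR1 was the lowest library, 3.18-fold below NT (2.82 to 3.60), and Y27 and NT were within counting error of each other. Siah2, a ubiquitin ligase that targets prolyl hydroxylases, was 2.20-fold lower in IWR1 (1.58 to 3.11) and 1.44-fold lower in Y27 (1.07 to 1.93). Vhl was 1.35-fold (1.09 to 1.69) and 1.58-fold (1.26 to 2.00) lower than NT in the same order, and Eloc, elongin C of the same ligase, 1.53-fold (1.27 to 1.85) and 1.59-fold (1.33 to 1.92) higher. Of 27 other HIF targets compared (30 listed), 18 were lower in IWR1 and 19 in Y27 than in NT, with medians of -0.09 and -0.30, against 50.3% and 51.9% of all genes lower. None was at least 2-fold apart in IWR1, against 2.25% of all genes lower and 2.28% higher by that much. In Y27 2 were at least 2-fold lower, against 1.34% of all genes, and 1 higher, against 5.58%. Bhlhe40, a repressor of the circadian and hypoxic responses, was at 59.7 CPM in IWR1, 17.7 CPM in Y27 and 57.1 CPM in NT, 3.22-fold lower in Y27 (2.56 to 4.08). Rora, a nuclear receptor gene, was 2.83-fold higher in Y27 (1.65 to 5.05) on partly fractional counts. Edn1, endothelin 1, was 2.23-fold lower in IWR1 (1.29 to 3.98) and 2.12-fold lower in Y27 (1.23 to 3.74), log2 differences of -0.97 and -0.91 after the pseudocount.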

How the data were processed

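RNA of 3 cultures was sequenced, and groups were taken from the labels. Columns for transcript length, expected counts and FPKM are named per the file headers. The expected counts deposited by the authors estimate the reads of each gene, without scaling. The deposited FPKM values divide them by transcript length and library sum. The submitters' processing notes name Bowtie 0.12.2 and mm8. The name of the count estimator is not given in the sources used.

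Genes missing from 1 table were set to 0 there. Symbols came from RefSeq (99.7% of identifiers matched). TMM factors (edgeR 4.0.16 in R 4.3.3) were 0.998, 1.02 and 0.980 in IWR1, Y27 and NT. A mean of at least 1 CPM was required (12955 genes), with a pseudocount of 1 CPM. Rounded counts entered the exact conditional binomial 95% intervals. The length and GC trend was a third-degree surface fitted over all genes compared, with GC from GENCODE transcripts (GRCm38) for 96.1% of them and length alone for the rest. Other settings were pseudocounts of 0.1 and 5 CPM, library totals, upper quartiles and DESeq2 1.42.0 size factors as scalings, no level filter or one of 5 CPM, thresholds of 1.5-fold and 3-fold, FPKM, whole counts, trend removal, and, chosen after seeing the data, centring on genes of at least 100 CPM.

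The members and lists were chosen with earlier results of these data known. All members are named, and from each further list up to 4 genes with the largest absolute log2 difference from NT, some of which are not reported here. The steps were tested on simulated data. Software also included Python 3.11.15, pandas 2.3.3, numpy 2.4.6, matplotlib 3.10.9 and scipy 1.17.1.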

Additional observations from a re-analysis of the deposited data

How the results depend on the processing

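Over 13 other settings the median of the members stayed negative in IWR1 over NT (-0.25 to -0.13) and Y27 over NT (-0.50 to -0.32) and positive in IWR1 over Y27 (0.16 to 0.25). The thresholds of 1.5-fold and 3-fold were among these settings and could not move a median or a sign. Counts past the threshold, being small, moved. In IWR1 over NT the 2 lower members became 1 with a pseudocount of 5 CPM, deposited FPKM, whole counts only or centring on genes of at least 100 CPM, 5 at 1.5-fold, 0 at 3-fold, and 3 with a pseudocount of 0.1 CPM, where Ndrg1 was also past 2-fold. In Y27 over NT the 1 lower member became 2 with a pseudocount of 0.1 CPM, 5 at 1.5-fold, 0 at 3-fold and 0 with whole counts only, where Pfkfb3 is not included, and 1 was higher at 1.5-fold. In IWR1 over Y27 4 were higher and 1 lower at 1.5-fold. Of 99 differences of single members, 17 changed sign under at least 1 setting, none of them past 2-fold. The causes were not tested. Centring moved the median of all genes in Y27 over NT to 0.105 on the log2 scale. Over all genes, settings that kept the 2-fold threshold gave 98 to 463 lower (292 as reported) and 80 to 543 higher (295) in IWR1 over NT, 42 to 320 lower (173) and 228 to 1018 higher (723) in Y27 over NT, and 146 to 595 lower (376) and 53 to 311 higher (179) in IWR1 over Y27. No paired analysis was possible because each group had 1 library. Depth limits Adm, Car9, Epas1, Eno2, Pfkfb4 and Ankrd37, whose intervals are wide or could not be given.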

Other observations

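Genes that control growth and glucose use were listed beside the members, and 15 of 16 were compared. None was at least 2-fold apart from NT, with medians of -0.01 in IWR1 and -0.08 in Y27. Of all genes, 2.25% were lower and 2.28% higher by that much in IWR1, and 1.34% and 5.58% in Y27, so this says little for so short a list. Mycn, a Myc family gene of pluripotent and neural progenitor cells, was at 328 CPM in IWR1, 181 CPM in Y27 and 197 CPM in NT. IWR1 was the highest library, 1.66-fold higher than NT (1.54 to 1.79) and at 0.84 on the log2 scale with the length and GC trend removed. Rps6kb1, an S6 kinase gene, and Prkaa1, a catalytic subunit gene of AMP-activated kinase, were 1.54-fold and 1.40-fold higher in IWR1 and 1.54-fold and 1.67-fold higher in Y27 than in NT. With the trend removed their log2 differences were 0.22 and -0.12 in IWR1 over NT and 0.04 and -0.17 in Y27 over NT.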
